A study of Mus musculus with 42 samples.

Results

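The type I interferon-stimulated genes described here are 34 named genes, of 47643 genes in each deposited table, found by matching the Ensembl identifiers of the tables to mouse symbols. All 34 were found, and 32 had a mean of at least 10 in both the young and the aged table. Ifi44 and Ifit3b fell below that level and are described apart. They are outside every count of members except those made over all members with a promoter sequence. The samples were macrophages of C57BL/6 mice, young (2 to 3 months) or aged (18 to 20 months), and no genotype or treatment other than age is named. Sampling ran over 7 zeitgeber times (ZT counts hours of the light and dark cycle in which mice are kept): ZT0, 4, 8, 12, 16, 20 and 24. Every age and time, 14 groups together, has 3 libraries, which makes 42. The labels call the cells macrophages and do not name the tissue. Gata6, a factor of the resident macrophages of the peritoneum, was at 1232 ± 180 rescaled reads (SD, n = 21) in young and 1371 ± 333 (SD, n = 21) in aged libraries, and Adgre1, which encodes the macrophage marker F4/80, at 5845 ± 587 and 6131 ± 1131.

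Type I interferons bind the receptor IFNAR, and its kinases JAK1 and TYK2 phosphorylate transcription factors, STAT2 among them. With IRF9 these form a complex that binds the interferon-stimulated response element (ISRE) in the promoters of many genes, whose products sense foreign nucleic acid, block viruses or adjust the signal itself. Macrophages carry the sensors and the receptor, and unstimulated macrophages keep a low level of this program running.

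Young libraries held 7433159 to 13574542 reads in genes and aged libraries 4864402 to 15587030. Each age was deposited as its own table, so reads of all 42 libraries were rescaled together, and levels are given in these rescaled reads. The libraries read the 3' end of a transcript, so a level does not grow with gene length. Differences between ages are log2 differences of level + 1, so changes of weakly read genes come out too small. Whether libraries within 1 group came from separate animals is not stated in the labels. A p-value therefore reflects only how far these samples scatter, and that scatter may be technical. Age and table, and with it any batch in which a table was made, cannot be told apart. In such bulk samples fewer cells of a type and less RNA per cell cannot be told apart either.

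The promoters are shown first because the ISRE is the sequence these genes are known to share. RefSeq windows of 300 bases, from 250 bases before to 50 after a start site on GRCm38.p6, were at hand for 24 of the 34 members. Ifi44 and Ifit3b are among these 24. Both strands were searched for the ISRE letters GAAA, any 2 bases, GAAA (TTTC, any 2 bases, TTTC on the other strand), overlapping matches included, and 14 of the 24 members (58.3%) held it in a window. Of all 27025 genes with a window, 3.99% held it. The palindromic letters TTCNNNGAA of the gamma-activated sequence (GAS) were in 4 of the 24 members (16.7%) and in 9.55% of all genes. Among members counted below, 8 of the 13 that were higher in aged cells and had a window held the ISRE letters, as did 5 of the 9 that were not. Mx1, Mx2, Oas2, Usp18, Ifi27l2a, Ifi204, Zbp1, Rtp4, Dhx58 and Parp14 had no window in the table. The first 6 windows printed here are those of the members that were higher in aged cells at the highest level, and Isg15 and Bst2 follow as members that were not called, chosen after their values were seen. All are 5′ to 3′ on the strand of the gene, with ISRE letters on either strand in capitals. They lie at chr7:104465144-104465443 (Trim30a, the upstream of its 2 windows), chr4:40239776-40240075 (Ddx58), chr2:62646206-62646505 (Ifih1), chr7:141266375-141266674 (Irf7), chr11:82951852-82952151 (Slfn5), chr5:114896684-114896983 (Oasl2), chr4:156200769-156201068 (Isg15) and chr8:71537423-71537722 (Bst2), in the plus strand for Slfn5 and Oasl2 and in the minus strand for the others.
Trim30a: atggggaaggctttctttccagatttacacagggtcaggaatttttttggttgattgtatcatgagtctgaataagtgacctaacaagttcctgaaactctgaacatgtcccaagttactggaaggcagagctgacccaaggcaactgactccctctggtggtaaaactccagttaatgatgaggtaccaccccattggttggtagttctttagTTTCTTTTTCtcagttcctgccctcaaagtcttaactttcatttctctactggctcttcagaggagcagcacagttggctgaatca
Ddx58: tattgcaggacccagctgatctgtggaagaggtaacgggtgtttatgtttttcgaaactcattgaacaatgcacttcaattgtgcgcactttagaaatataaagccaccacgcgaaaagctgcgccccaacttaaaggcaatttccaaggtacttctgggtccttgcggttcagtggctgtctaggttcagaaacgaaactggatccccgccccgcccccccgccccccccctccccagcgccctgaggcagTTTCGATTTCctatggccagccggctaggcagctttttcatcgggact
Ifih1: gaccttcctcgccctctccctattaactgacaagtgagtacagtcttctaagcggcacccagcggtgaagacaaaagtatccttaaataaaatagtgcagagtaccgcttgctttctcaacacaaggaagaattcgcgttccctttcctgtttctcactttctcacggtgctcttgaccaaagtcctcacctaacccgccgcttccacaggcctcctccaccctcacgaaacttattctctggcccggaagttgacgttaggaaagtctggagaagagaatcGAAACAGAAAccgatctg
Irf7: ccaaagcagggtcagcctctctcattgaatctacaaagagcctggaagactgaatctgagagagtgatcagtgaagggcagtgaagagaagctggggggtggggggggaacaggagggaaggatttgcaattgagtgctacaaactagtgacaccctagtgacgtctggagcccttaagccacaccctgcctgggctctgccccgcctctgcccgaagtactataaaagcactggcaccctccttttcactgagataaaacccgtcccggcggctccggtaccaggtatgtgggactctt
Slfn5: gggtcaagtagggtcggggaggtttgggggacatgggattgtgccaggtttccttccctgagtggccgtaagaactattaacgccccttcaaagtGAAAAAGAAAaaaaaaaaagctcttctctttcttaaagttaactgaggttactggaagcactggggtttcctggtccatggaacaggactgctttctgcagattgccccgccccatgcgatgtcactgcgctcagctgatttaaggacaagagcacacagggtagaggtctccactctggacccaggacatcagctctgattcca
Oasl2: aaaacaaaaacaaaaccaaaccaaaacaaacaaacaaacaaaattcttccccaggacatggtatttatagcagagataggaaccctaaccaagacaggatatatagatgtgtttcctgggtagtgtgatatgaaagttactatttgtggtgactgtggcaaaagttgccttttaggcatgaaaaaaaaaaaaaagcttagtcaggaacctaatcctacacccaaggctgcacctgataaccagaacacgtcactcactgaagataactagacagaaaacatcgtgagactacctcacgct
Isg15: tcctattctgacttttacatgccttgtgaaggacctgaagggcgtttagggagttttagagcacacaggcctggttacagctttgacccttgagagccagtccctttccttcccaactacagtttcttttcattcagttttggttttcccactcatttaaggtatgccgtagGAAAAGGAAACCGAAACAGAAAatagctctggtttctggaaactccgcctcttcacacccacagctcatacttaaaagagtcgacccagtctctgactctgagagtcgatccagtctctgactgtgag
Bst2: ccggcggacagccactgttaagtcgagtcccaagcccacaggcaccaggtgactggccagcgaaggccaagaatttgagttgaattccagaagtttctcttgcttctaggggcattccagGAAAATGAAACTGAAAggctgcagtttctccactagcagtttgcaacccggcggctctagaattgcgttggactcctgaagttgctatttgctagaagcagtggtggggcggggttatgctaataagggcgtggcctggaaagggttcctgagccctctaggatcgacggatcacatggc
In Isg15 the letters occurred 3 times in overlap, from base -78 counted from the start site, and in Bst2 they occurred 2 times, from base -130. In Ifih1 and Ddx58 they lay just inside the transcript, from base 33 and base 3. Neither the Irf7 nor the Oasl2 window held these exact letters, which says nothing of the factors that bind there. The other windows with the letters were those of Ifit1, Ifit3, Ifit3b, Oas1a, Oas3, Rsad2, Stat2 and Ifi203, and in Ifit1, Ifit3, Ifit3b and Oas1a they occurred 2 times each.

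The first comparison asked whether the members' mean level over the day differed with age. More of the antiviral program was higher than lower in aged macrophages: 15 of the 32 members were higher, 1 was lower and 16 were not called by limma at a Benjamini-Hochberg adjusted p under 0.05 over 12086 genes. Over all genes tested, 12.0% were called higher and 11.7% lower. The members' median log2 difference was 0.27, where that of all genes was 0.0033, and 26 of the 32 had a difference above 0, as did 50.8% of all genes. The differences of the 15 ran from 0.22 to 1.11 on the log2 scale. In all 32 members the ranges of the young and the aged libraries overlapped. The share of all genes with such an overlap was not taken, so this does not set the members apart. Of the 15 members called higher, 3 were higher at all 7 times (Irf7, Ifit1 and Ddx58) and 12 at 6 or 7 of them. The called difference is the mean of these 7 differences, so the counts describe it and add no evidence.

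**Figure D1:**
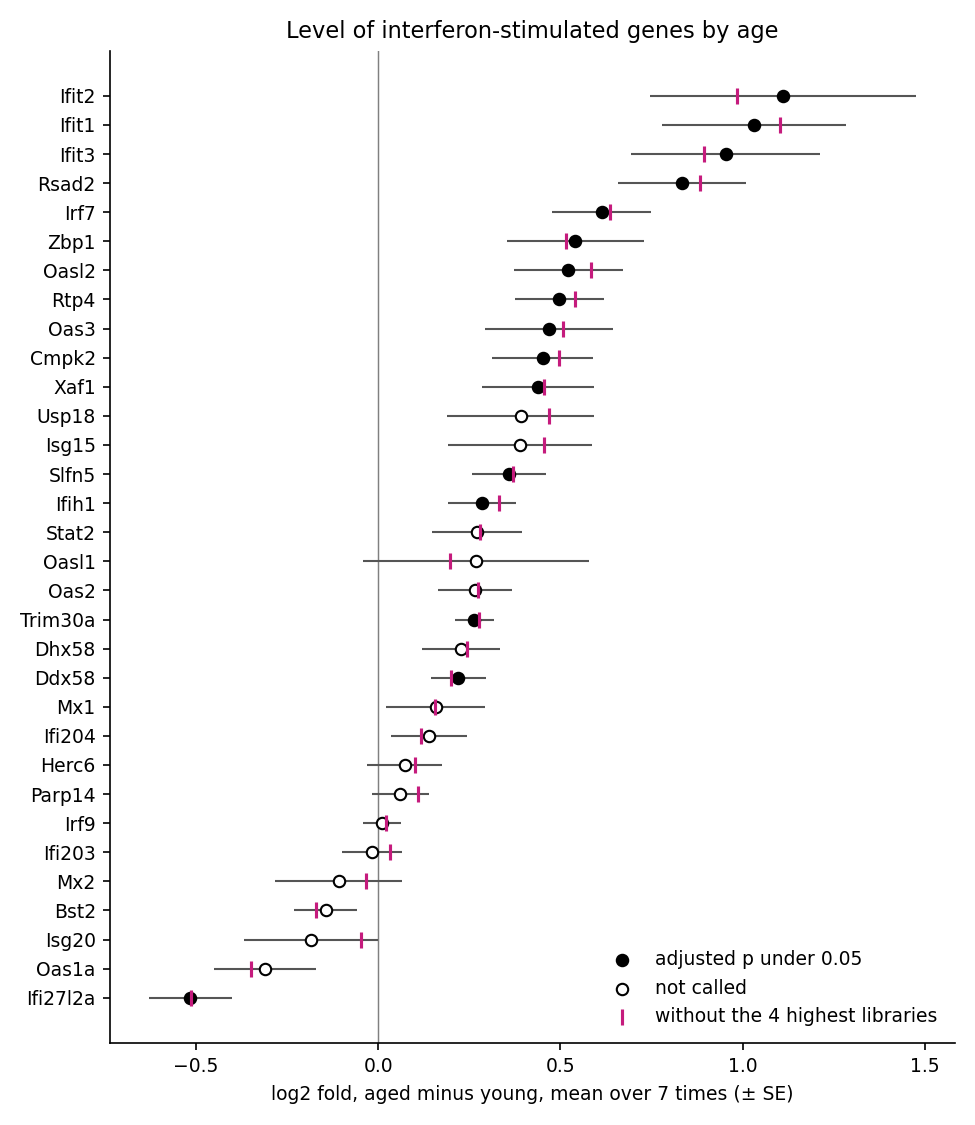
Log2 difference in level between aged and young macrophages (aged minus young, mean over 7 times, ± SE) for the 32 members, with filled circles for members called by limma and bars for the value without the 4 libraries in which the members were highest. The IFIT genes and Rsad2 lie farthest to the right, at 0.83 to 1.11, and Ifi27l2a is the only called member below 0, at -0.51.

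The IFIT family gave the widest differences. Ifit proteins bind foreign RNA and keep it from being translated. All 3 counted members were higher in aged cells. Ifit1 (ENSMUSG00000034459, chromosome 19, 34640871 to 34650009, plus strand, GRCm38), which recognises RNA whose cap lacks methyl groups, ran from 4.64 to 60.7 rescaled reads in young libraries (median 14.7) and from 12.9 to 88.8 in aged libraries (median 26.4). In aged cells 19 of 21 libraries lay above the young median, with ZT12 library 3 and ZT16 library 2 at the top, while in young cells ZT4 library 3 stood above the rest. The log2 difference was 1.03 ± 0.25 (SE), with a limma adjusted p of 0.00197. Ifit3 (ENSMUSG00000074896, chromosome 19, 34583531 to 34588731, plus strand), of the same family, was at 6.03 to 69.4 in young libraries (median 20.4) and 8.62 to 183 in aged libraries (median 45.2). Its highest young library was ZT16 library 3 and its highest aged library ZT12 library 3, and 18 of 21 aged libraries were above the young median. The log2 difference was 0.95 ± 0.26 (SE; limma, adjusted p = 0.00502). Ifit2 (ENSMUSG00000045932, chromosome 19, 34550694 to 34576419, plus strand) ran from 0 to 36.3 in young libraries (median 12.1) and from 1.09 to 199 in aged libraries (median 25.7). The top of that aged range was again ZT12 library 3, followed by ZT16 library 1 at 122, and the next aged library was far below at 55.3. Its log2 difference was 1.11 ± 0.37 (SE; limma, adjusted p = 0.0221), and without these 2 aged libraries it was 0.87 with an adjusted p of 0.0795, above the threshold. Ifit3b, a copy of Ifit3 that lies next to it, averaged 5.61 ± 4.57 (SD, n = 21) in young and 8.61 ± 7.31 (SD, n = 21) in aged libraries and was not tested. How the authors' counting treated reads shared by Ifit3 and Ifit3b is not stated, so their split is uncertain.

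Among the other antiviral effectors Rsad2 and Cmpk2 were higher in aged cells, and Mx1, Mx2, Bst2 and Isg20 were not called. Rsad2 and Cmpk2 lie head to head on chromosome 12. Rsad2 (ENSMUSG00000020641, chromosome 12, 26442746 to 26456452, minus strand) encodes viperin, which makes a chain-terminating nucleotide, and ran from 27.7 to 306 in young libraries (median 79.3) and from 46.5 to 394 in aged libraries (median 151). Young ZT4 library 3 and aged ZT16 library 1 were the highest of their ages, young ZT0 library 3 was the lowest of all, and 19 of 21 aged libraries lay above the young median. The log2 difference was 0.83 ± 0.18 (SE), a 1.78-fold higher level, with a limma adjusted p of 3.46e-04. Cmpk2 (ENSMUSG00000020638, chromosome 12, 26469204 to 26479837, plus strand), a mitochondrial nucleotide kinase that can supply it, was at 61.3 to 253 in young libraries (median 90.5) and 50.6 to 224 in aged libraries (median 145). The highest of all 42 libraries was a young one, ZT4 library 3, although 19 of 21 aged libraries lay above the young median. It differed by 0.45 ± 0.14 (SE; limma, adjusted p = 0.0131). Mx1 and Mx2 are GTPases that trap incoming viruses, and C57BL/6 mice carry a defective Mx1 allele. Mx1 differed by 0.16 ± 0.14 (SE; limma, adjusted p = 0.444) and Mx2 by -0.11 ± 0.17 (SE; limma, adjusted p = 0.715). Isg20, an RNA exonuclease, differed by -0.18 ± 0.18 (SE; limma, adjusted p = 0.522). Bst2, the membrane tether that holds budding virus on the cell, is one of the 4 uncalled members of highest level, at 579 to 1260 in young libraries (median 814) and 480 to 1266 in aged libraries (median 690). Its log2 difference was -0.14 ± 0.087 (SE; limma, adjusted p = 0.251), and 7 of 21 aged libraries lay above the young median.

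**Figure D2:**
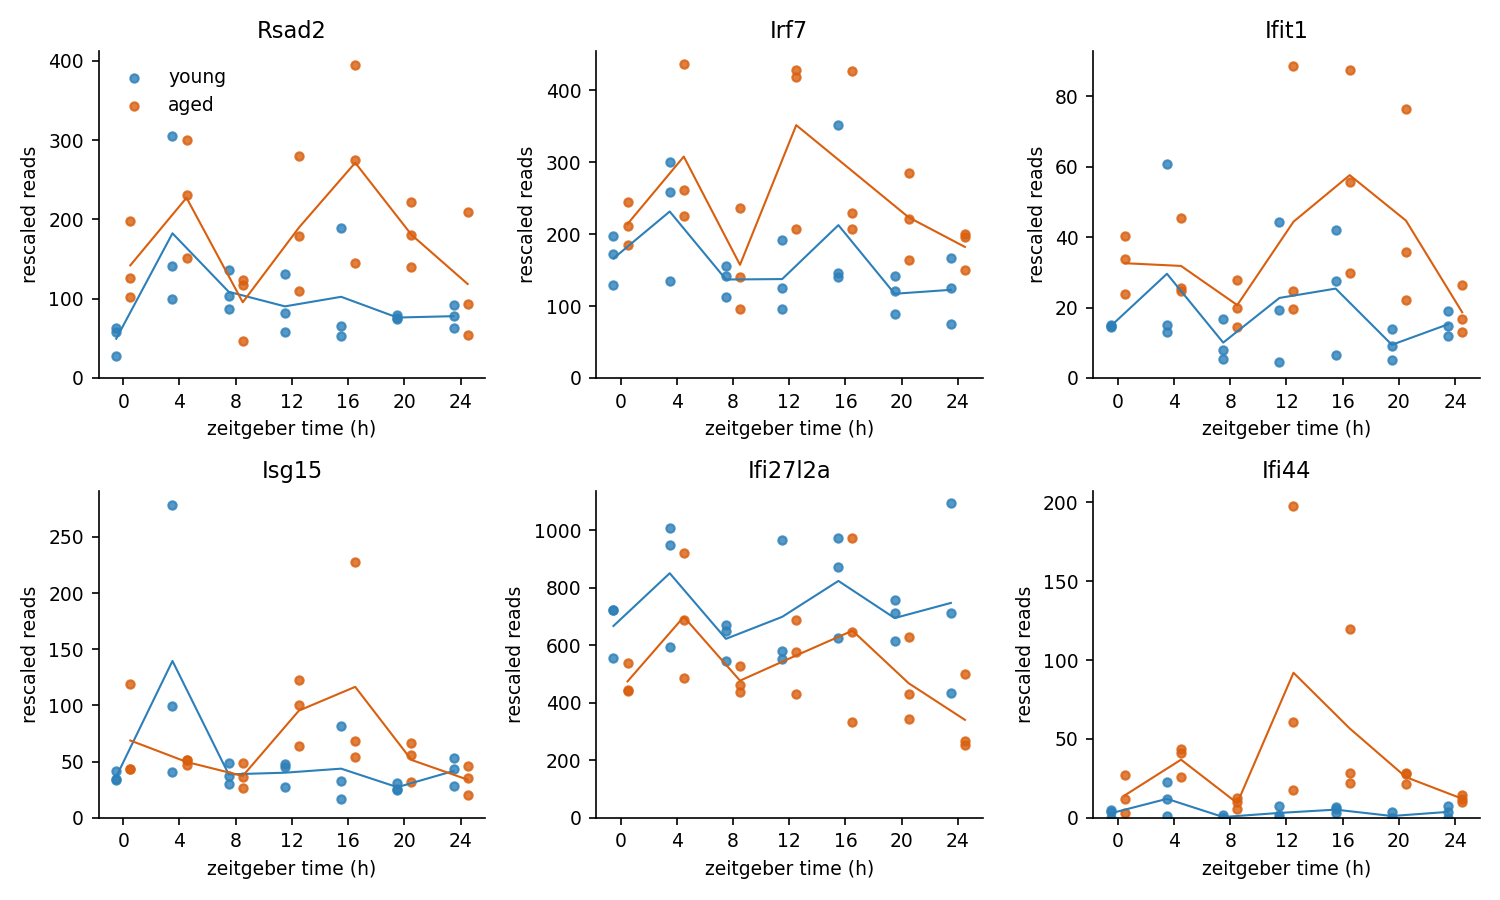
Rescaled reads of 6 members in each library by zeitgeber time, with points for the 3 libraries of a group and lines through the group means of young (blue) and aged (orange) macrophages. Rsad2, Irf7 and Ifit1 were higher in aged cells and Ifi27l2a lower, Isg15 was highest in young ZT4 library 3 at 278, and Ifi44 stayed at or below 23.0 in young libraries.

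In the OAS family, whose enzymes make the 2-5A signal that switches on RNase L, and of which Oasl1 and Oasl2 are the OAS-like members, 2 of 5 were higher. Oasl2 (ENSMUSG00000029561, chromosome 5, 114896936 to 114912234, plus strand) was at 57.3 to 307 in young libraries (median 86.6) and 58.8 to 342 in aged libraries (median 155). Young ZT4 library 3 and aged ZT16 library 1 were the highest of their ages, and 19 of 21 aged libraries lay above the young median. It differed by 0.52 ± 0.15 (SE; limma, adjusted p = 0.00840), and without the ZT0 libraries the adjusted p was 0.0559. Oas3 was at 30.7 to 136 in young libraries (median 65.3) and 23.8 to 216 in aged libraries (median 94.6). Its difference of 0.47 ± 0.17 (SE; limma, adjusted p = 0.0459) sat close to the threshold and was lost on leaving out any one of 26 of the 42 libraries. Oas2, at a median of 284 in young and 362 in aged libraries, differed by 0.27 ± 0.10 (SE; limma, adjusted p = 0.0506), just past the other side of the threshold, and was called on leaving out any one of 14 libraries. Oasl1, which restrains the translation of Irf7, differed by 0.27 ± 0.31 (SE; limma, adjusted p = 0.590). Oas1a pointed the other way, at -0.31 ± 0.14 (SE; limma, adjusted p = 0.106), with a median of 97.9 in young and 88.7 in aged libraries, and 8 of 21 aged libraries lay above the young median.

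Of the 3 transcription factors Irf7 was higher, and Stat2 and Irf9, both parts of the complex that binds the ISRE, were not called. Irf7 (ENSMUSG00000025498, chromosome 7, 141262706 to 141266481, minus strand) drives the second wave of interferon production and ran from 75.4 to 352 in young libraries (median 142) and from 95.6 to 437 in aged libraries (median 221). It was higher in aged cells at all 7 times, and 19 of 21 aged libraries were above the young median. Its log2 difference was 0.61 ± 0.14 (SE), a 1.53-fold higher level, with a limma adjusted p of 6.79e-04. Its gene model overlaps that of Phrf1 on the other strand, and the strand setting of the authors' counting is not stated. Stat2 was at 71.6 to 351 in young libraries (median 159) and 112 to 373 in aged libraries (median 194). Its difference was 0.27 ± 0.12 (SE; limma, adjusted p = 0.114). Irf9 (ENSMUSG00000002325, chromosome 14, 55603571 to 55610030, plus strand) had a level far above the other factors and hardly any spread, at 1091 to 1651 in young libraries (median 1218) and 1016 to 1559 in aged libraries (median 1246). It differed by 0.012 ± 0.052 (SE; limma, adjusted p = 0.906), with the sign turned under scaling to the total, and its model overlaps that of Rnf31 on the same strand.

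Of the 6 sensors, 3 were higher. Ddx58 (RIG-I) and Ifih1 (MDA5) recognise double-stranded RNA, and Dhx58 (LGP2) regulates them. Ifih1 (ENSMUSG00000026896, chromosome 2, 62595798 to 62646255, minus strand) was at 131 to 328 in young libraries (median 204) and 172 to 393 in aged libraries (median 235). The young top was a ZT0 library and the aged top was at ZT12, and 16 of 21 aged libraries lay above the young median. Its log2 difference was 0.29 ± 0.093 (SE; limma, adjusted p = 0.0204). Ddx58 was at 352 to 664 in young libraries (median 492) and 396 to 707 in aged libraries (median 549). It differed by 0.22 ± 0.076 (SE; limma, adjusted p = 0.0292), higher at all 7 times, and the call was lost on leaving out any one of 7 libraries. Zbp1, a sensor of left-handed nucleic acid that can set off cell death, was at 43.3 to 524 in young libraries (median 98.3) and 70.4 to 458 in aged libraries (median 127). The 524 was young ZT4 library 3, and the highest of the other young libraries was ZT4 library 2 at 263. Its difference of 0.54 ± 0.19 (SE; limma, adjusted p = 0.0314) was lost when ZT0 was left out (adjusted p = 0.132) and on leaving out any one of 8 libraries, aged ZT12 library 3 and ZT16 library 1 among them. Dhx58 differed by 0.23 ± 0.11 (SE; limma, adjusted p = 0.126). The HIN-200 proteins Ifi204 and Ifi203 bind DNA, and neither gene was called. Ifi204 differed by 0.14 ± 0.10 (SE; limma, adjusted p = 0.370). Ifi203 (ENSMUSG00000039997, chromosome 1, 173920407 to 173942672, minus strand) was at 1102 to 2984 in young libraries (median 1249) and 726 to 1740 in aged libraries (median 1405), with young ZT4 library 3 far above every other library of either age. It differed by -0.016 ± 0.083 (SE; limma, adjusted p = 0.920), and its model overlaps that of Mndal, another gene of the family, on the same strand.

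None of the 3 genes of the ubiquitin-like ISG15 system was called. Isg15, the modifier itself, was at 16.5 to 278 in young libraries (median 37.0) and 20.46 to 228 in aged libraries (median 51.04), and 16 of 21 aged libraries lay above the young median. The top of the young range, ZT4 library 3, was the highest of all 42 libraries, and the next young library was at 99.7. Its log2 difference was 0.39 ± 0.20 (SE; limma, adjusted p = 0.160). Without young ZT4 library 3 and ZT16 library 3 it was 0.57 (limma, adjusted p = 0.0150). Without aged ZT12 library 3 and ZT16 library 1 it was 0.27 (limma, adjusted p = 0.349). These libraries were picked for their high values, so leaving them out of 1 age moves the difference toward the other age. Usp18, which strips ISG15 from proteins and shuts off the receptor, differed by 0.39 ± 0.20 (SE; limma, adjusted p = 0.169). Herc6, the main mouse ligase for ISG15, differed by 0.073 ± 0.10 (SE; limma, adjusted p = 0.670).

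Of the 6 other counted members, 4 were higher and Ifi27l2a was lower. Trim30a (ENSMUSG00000030921, chromosome 7, 104409025 to 104465193, minus strand), a brake on Toll-like receptor signalling, had the lowest p of all members, at 1325 to 2175 in young libraries (median 1571) and 1322 to 2487 in aged libraries (median 1904). The spread was narrow and 18 of 21 aged libraries lay above the young median. The log2 difference was 0.26 ± 0.053 (SE; limma, adjusted p = 1.91e-04). Rtp4 (ENSMUSG00000033355, chromosome 16, 23520291 to 23614222, plus strand), which encodes a chaperone of membrane receptors, was at 335 to 1493 in young libraries (median 581) and 355 to 1591 in aged libraries (median 839). Young ZT4 library 3 and aged ZT16 library 1 were the highest of their ages. It differed by 0.50 ± 0.12 (SE; limma, adjusted p = 0.00213). Slfn5 (ENSMUSG00000054404, chromosome 11, 82951349 to 82964840, plus strand), of the schlafen family, was at 111 to 312 in young libraries (median 163) and 109 to 376 in aged libraries (median 216). It differed by 0.36 ± 0.10 (SE; limma, adjusted p = 0.00691), and its model overlaps that of the antisense gene Slfn5os. Xaf1, which antagonises an inhibitor of apoptosis, differed by 0.44 ± 0.15 (SE; limma, adjusted p = 0.0314), with 20 of 21 aged libraries above the young median. The Xaf1 call was lost on leaving out any one of 7 libraries. Parp14, an ADP-ribosyltransferase, was at 644 to 1789 in young libraries (median 745) and 579 to 1114 in aged libraries (median 834) and differed by 0.061 ± 0.078 (SE; limma, adjusted p = 0.633).

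Ifi27l2a (ENSMUSG00000079017, chromosome 12, 103442167 to 103443680, minus strand), a small membrane protein gene that interferon strongly induces, ran against the other called members. It was at 434 to 1096 in young libraries (median 712) and 254 to 974 in aged libraries (median 487). Its mean was lower in aged cells at all 7 times, and 2 of 21 aged libraries lay above the young median, with aged ZT16 library 1 the highest of its age. The level fell by 0.51 ± 0.11 (SE) on the log2 scale (limma, adjusted p = 6.82e-04). It was called under every alternative and with every single library left out.

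Ifi44 (ENSMUSG00000028037, chromosome 3, 151730922 to 151749960, minus strand), whose product is induced in the cytoplasm by interferon, was at 0 to 23.0 in young libraries (median 3.32) and 3.37 to 198 in aged libraries (median 21.9). In 7 of the 21 young libraries it had no read, and all 21 aged libraries lay above the young median. Aged ZT12 library 3 and ZT16 library 1 were again the highest, at 198 and 120. Because it passed the filter on low values only through the aged libraries, its log2 difference of 2.88 ± 0.37 (SE) is given as a description.

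The same few libraries stood out in gene after gene. For each library a score was taken as the mean, over the 32 members, of the log2 level minus the gene's mean over the 42 libraries. Scores averaged -0.15 ± 0.33 (SD, n = 21) in young and 0.15 ± 0.37 (SD, n = 21) in aged libraries, and 4 of 21 young and 15 of 21 aged libraries were above 0. The highest were aged ZT16 library 1 at 0.98, aged ZT12 library 3 at 0.90, young ZT4 library 3 at 0.82, aged ZT4 library 2 at 0.54 and young ZT16 library 3 at 0.52. The other libraries of these groups were lower: the other aged ZT12 libraries were at 0.10 and 0.37, and the other young ZT4 libraries at -0.25 and 0.19.

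**Figure D3:**
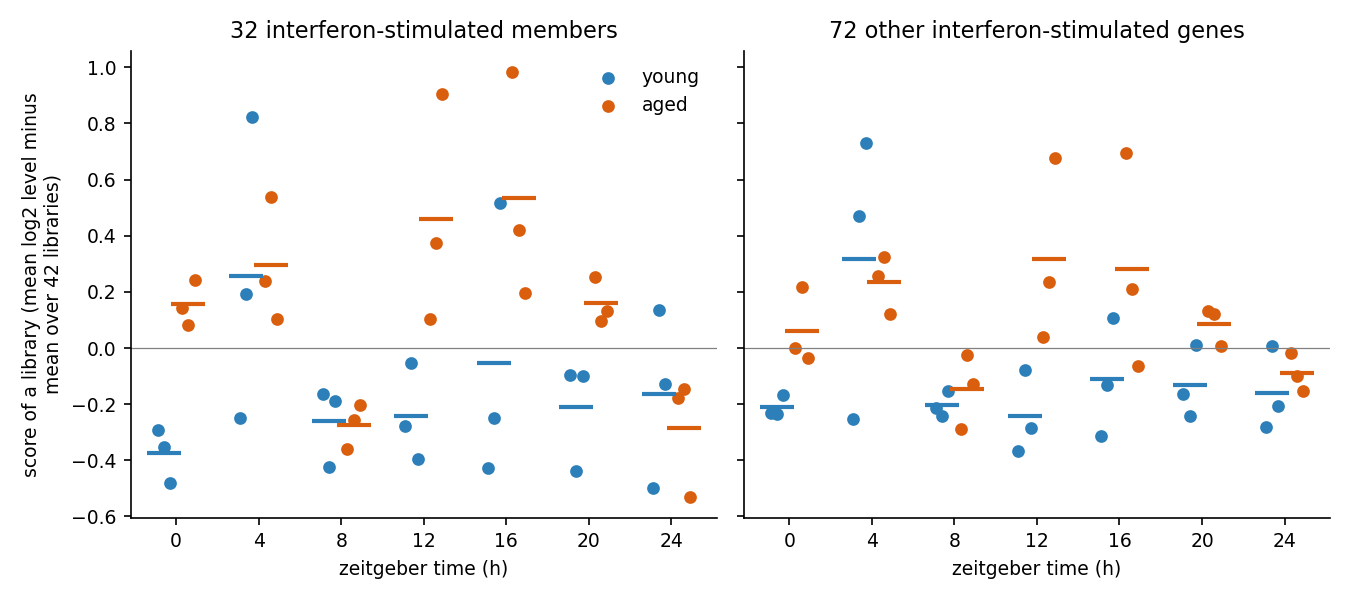
Score of each library (mean log2 level minus the mean over 42 libraries) by zeitgeber time for the 32 members (left) and for 72 other interferon-stimulated genes (right), with bars for the group means of young (blue) and aged (orange) libraries. Single libraries at ZT4 and ZT16 in young cells and at ZT12 and ZT16 in aged cells lie well above their groups, at 0.52 to 0.98 on the left.

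Young ZT4 library 3 was the highest young library for 17 of 32 members (53.1%), and for 10.7% of all genes. Young ZT16 library 3 was the highest for 11 (34.4%, where it was for 5.77% of all genes), so these 2 libraries gave the young maximum of 28 of the 32 members. In aged cells ZT12 library 3 and ZT16 library 1 were each the highest for 11 members (34.4%), where they were for 4.12% and 6.00% of all genes, and gave the aged maximum of 22 together. For 9 members the highest of all 42 libraries was a young one. These libraries were picked by their values, so the counts describe them and test nothing. In young ZT4 library 3, 31 of 32 members were above the mean of the other ZT4 libraries, with a median ratio of 1.90 and 13 members at 2-fold or more. Ifit1 had the highest ratio there, 4.33, at 60.7 against 15.0 and 13.04. Ddx58 was the exception, at 373 against 494 and 589. Young ZT16 library 3 was above the mean of its group for 30 of 32 members, with a median ratio of 1.87, led by Isg15 at 81.6 against 16.5 and 33.2. In aged ZT12 library 3 the median ratio was 1.34 and in aged ZT16 library 1 it was 1.47, and in both Ifit2 led, with ratios of 5.98 and 6.17.

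**Figure D4:**
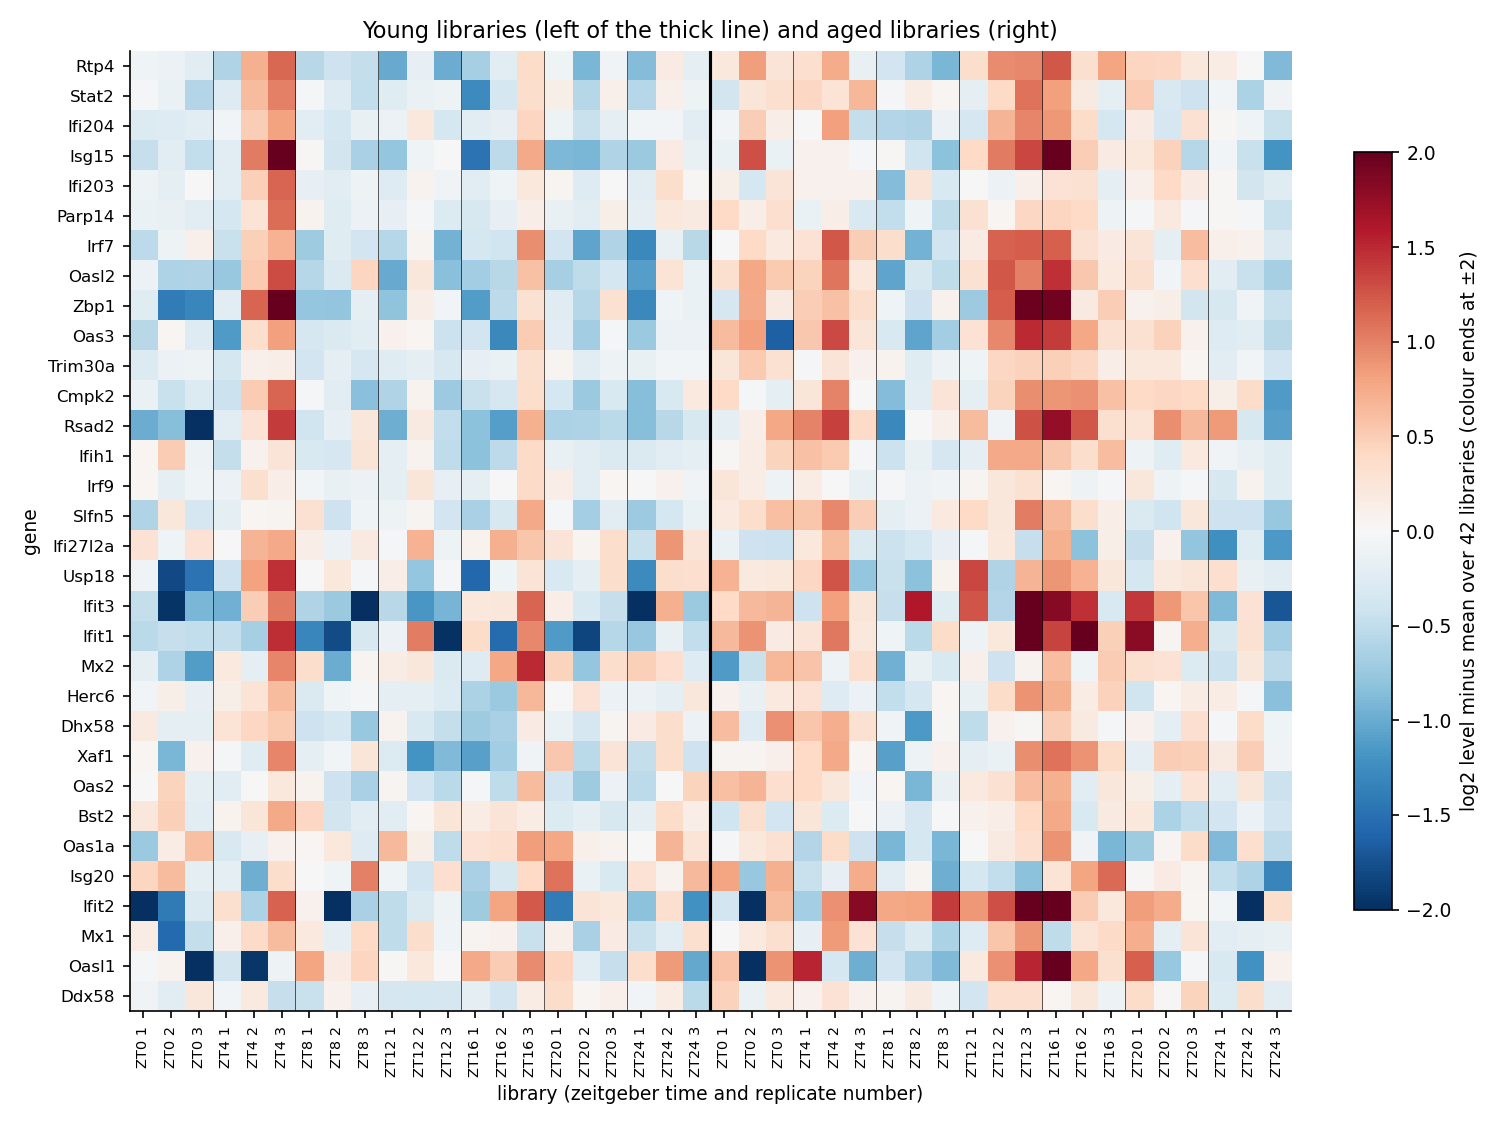
Log2 level of each of the 32 members minus its mean over 42 libraries, one column a library, ordered by age, time and replicate number, with genes ordered by how closely they followed the other members in young cells. Columns of red run through most members in young ZT4 library 3, aged ZT12 library 3 and aged ZT16 library 1, and the aged ZT8 and ZT24 columns are mostly blue.

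The genes that made up these libraries' high scores were not alike. In young ZT4 library 3 the genes at the highest level of all 42 libraries were Isg15, Usp18, Ifi203, Cmpk2, Zbp1 and Parp14, while Irf9, Slfn5 and Oas2 were at 1.01, 1.08 and 1.26 times the mean of the other ZT4 libraries. In young ZT16 library 3 the order differed: Irf9 and Mx2 were the highest of all 42 libraries, at 1651 and 95.3, and Slfn5 was at 312 against 118 and 147. Zbp1 was at 144 there, within the range of the other young libraries. Of 72 other interferon-stimulated genes tested, 35 were highest among the young libraries in ZT4 library 3 and 6 in ZT16 library 3.

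Young ZT4 library 3 also differed from other libraries outside these genes. It was the deepest young library, at 13574542 reads, and held the lowest share of mitochondrial reads among young libraries, whose range was 1.39% to 1.88%. The mitochondrial share moved with age too, at a median of 1.64% in young and 1.90% in aged libraries (1.35% to 2.27%), and so did the share of reads in the 10 most read genes, at medians of 14.7% and 16.1%. Its summed macrophage and resident peritoneal macrophage markers were the highest of the 21 young libraries and its summed conventional dendritic cell markers the lowest. In young ZT16 library 3, aged ZT12 library 3 and aged ZT16 library 1 the macrophage marker sums ranked 21, 19 and 20 of 21, and the monocyte sums 6, 4 and 2. Their resident peritoneal macrophage sums ranked 21, 14 and 20, and their neutrophil sums 1, 13 and 4. A sum follows the most read genes of its list, and the macrophage list shares a gene with the other interferon-stimulated genes. These ranks therefore do not measure cell content. What part these differences have in the members' levels was not tested.

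The level difference with age was also taken without these libraries, the 2 of highest score in each age, an alternative chosen after seeing the data. Aged ZT4 library 2, which scored above young ZT16 library 3, was kept. Leaving out the highest libraries of 1 age lowers most members in that age, so counts without 2 libraries follow in part from that choice. The share of all genes called in these fits is not given. Without the 2 young libraries 18 members were higher, among them all of the 15, with Isg15, Oas2 and Stat2 added. Without the 2 aged libraries 10 were higher, all of them among the 15, and 2 were lower, as Oas1a joined Ifi27l2a at -0.39 (limma, adjusted p = 0.0335). Ifit2, Oas3, Xaf1, Zbp1 and Ddx58 then lost the call. Without all 4, 15 were higher and 1 lower, and 13 of the original 15 kept the call. Ifit2 (0.98; limma, adjusted p = 0.0561) and Ddx58 (0.20; limma, adjusted p = 0.0605) did not, and Isg15 (0.45; limma, adjusted p = 0.0467) and Oas2 (0.27; limma, adjusted p = 0.0422) were added. On leaving out single libraries in turn, 12 of the 16 called members kept the call every time, and Oas3, Zbp1, Ddx58 and Xaf1 lost it for some. The lowest count of higher members was 11, without aged ZT12 library 3, and the highest was 17, without young ZT16 library 3. Of all genes tested, 2636 to 2994 were called in either direction on leaving out single libraries, where 2863 were called with all 42.

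Within a group the levels of the members moved together from library to library. Over the 21 young libraries the mean correlation between deviations of pairs of members from their group means was 0.41, and over the 21 aged libraries 0.24. It was 0.29 and 0.19 for the other interferon-stimulated genes, and 0.00033 and 0.00085 for all genes tested. Without the 2 groups that hold the high libraries the members' values were 0.22 and 0.12. These are correlations across libraries that share a scale, given as a description. Rtp4 followed the mean of the other members most closely in young cells (r = 0.91) and Ifi204 in aged cells (r = 0.84). Ddx58 did not follow it in young cells (r = -0.0035), nor Isg20 in aged cells (r = -0.34). The members also varied more than most genes between libraries of a group, with a median SD of 0.47 in young and 0.44 in aged cells on the log2 scale, where the median of all genes was 0.27 and 0.31. The median over all genes was higher in aged cells, and 12 of the 32 members had their larger SD there. The share of all genes with the larger SD in aged cells was not taken, so this count has no background.

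The second comparison asked at which times the ages differed. At ZT12 the members showed their widest difference, with a median of 0.65 on the log2 scale and 29 of 32 above 0, and it was 0.55 at ZT16 (28 of 32) and 0.45 at ZT0 (29 of 32). The medians were 0.22 at ZT20, 0.013 at ZT4, -0.065 at ZT24 and -0.14 at ZT8, where 12 of 32 were above 0. ZT0 and ZT24 fall at the same clock hour, and 29 members were above 0 at ZT0 and 10 at ZT24, a difference that was not tested. The median of all genes stayed within 0.006 of 0 at every time. The scores show both sides of this: aged ZT8 libraries were at -0.36 to -0.20 and aged ZT24 libraries at -0.53 to -0.15, while the 3 young ZT0 libraries, at -0.48 to -0.29, were all below the aged ZT0 libraries, at 0.083 to 0.24.

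At single times few members were called. At ZT12, 3 were higher by limma (2.08% of all genes were called in either direction). Rtp4 was at 335, 603 and 338 in the young and 857, 1296 and 1305 in the aged ZT12 libraries, so the groups did not overlap. The log2 difference was 1.47 ± 0.32 (SE; limma, adjusted p = 0.00674). Irf7 was at 124, 192 and 95.8 in young and 207, 419 and 429 in aged ZT12 libraries, again with no overlap. It differed by 1.33 ± 0.36 (SE; limma, adjusted p = 0.0375). Trim30a was at 1468, 1520 and 1390 in young and 1641, 2316 and 2388 in aged ZT12 libraries and differed by 0.52 ± 0.14 (SE; limma, adjusted p = 0.0386). By edgeR the ZT12 count was 4 and by DESeq2 6, with the shares of all genes called by these tools not given. At ZT24, Ifi27l2a alone was called, lower in aged cells (2.09% of all genes were called in either direction), at 434, 1096 and 713 in young and 254, 501 and 268 in aged libraries. The highest aged library lay above the lowest young one, so these groups overlapped. It fell by 1.10 ± 0.30 (SE) on the log2 scale (limma, adjusted p = 0.0427).

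At ZT0, ZT4, ZT8, ZT16 and ZT20 limma called none of the 32 members, where 0.794%, 1.35%, 4.01%, 1.06% and 1.65% of all genes were called in either direction. At an unadjusted p under 0.05 there were 9, 3, 2, 13 and 5 members, where 10.6%, 14.3%, 16.3%, 10.7% and 12.8% of all genes were. The members' share was thus below that of all genes at ZT4 and ZT8. EdgeR called 0 at each of these times and DESeq2 1, 0, 0, 1 and 1. The percentages above are those of limma, and the shares of all genes called by edgeR and DESeq2 are not given. Xaf1 and Ifih1 had the lowest p-values of limma at ZT16, with adjusted p of 0.0876 and 0.103, and Trim30a had the lowest at ZT0, with 0.0644. The counts at single times moved with single libraries. Without one library the ZT12 count ranged from 0 to 6 and the ZT16 count from 0 to 3, with 3 when young ZT16 library 3 was left out. Outside the counted members, Ifi44 was at 0, 7.80 and 1.55 in young and 17.8, 60.5 and 198 in aged ZT12 libraries.

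The third comparison asked whether the members followed a 24 h rhythm. None of the 32 was called in either age or for a difference between them. In young cells limma's F-test for a 24 h cosine called 0 members (3.62% of all genes), with 2 at an unadjusted p under 0.05 (17.2% of all genes), and edgeR and DESeq2 called 0. The lowest p-values were those of Dhx58 (adjusted p = 0.201 by limma), Isg15 (0.277) and Rsad2 (0.319). Fitted peaks of these 3 fell at ZT 1.66, 5.34 and 7.85, and the peak-to-trough fold was 2.25 for Isg15 and 1.87 for Rsad2. In aged cells limma called 0 (0.308% of all genes), with 4 at an unadjusted p under 0.05 (9.01% of all genes). EdgeR called 0 and DESeq2 1, with the shares of all genes called by these tools not given. Ifit2 (adjusted p = 0.284 by limma), Rtp4 (0.470) and Isg15 (0.502) had the lowest p-values, with fitted peaks at ZT 12.1, 16.7 and 14.9 and folds of 4.91, 1.86 and 2.18. Isg15 had its highest young group mean at ZT4, with 140 ± 123.5 (SD, n = 3) and its highest aged group mean at ZT16, with 117 ± 96.4 (SD, n = 3). The young ZT4 libraries were at 41.0, 99.7 and 278, where 278 and 99.7 were the highest values of all young libraries. The aged ZT16 libraries were at 228, 68.0 and 54.1, so library 1 stood far above the others. For the difference in rhythm no member and no gene was called by limma (0% of all genes), and 4 members had an unadjusted p under 0.05 (4.09% of all genes). EdgeR and DESeq2 called no member. Isg15 had the lowest p of the members, 0.00531 unadjusted and 0.999 adjusted by limma. The members' median fitted fold was 1.31 in young and 1.38 in aged cells, where that of all genes was 1.21 in both.

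The genes upstream of the members were taken from lists of the pathway. For these lists and those that follow, the shares of all genes tested were 12.0% called higher and 11.7% called lower in aged cells. Counts in short lists are given beside these shares as a description. Of 21 genes of interferon ligands, 19 were listed at 0 in all 42 libraries, among them Ifnb1 and all the listed alpha interferon genes. A count of 0 allows up to 3 reads in a library, which is 1.63 to 5.07 on the scale of the deposited tables. Trex1, a nuclease gene, was also listed at 0 throughout, so a 0 is given here only as listed. Ifng, the type II ligand, was above 0 in 4 young and 2 aged libraries and nowhere above 8.04. Of 8 receptor and kinase genes tested, Jak1 was higher, by 0.11 ± 0.035 (SE; limma, adjusted p = 0.0161), and none was lower. Ifnar1 was at 295 ± 56.7 (SD, n = 21) in young and 297 ± 47.4 (SD, n = 21) in aged libraries. Of 17 genes of nucleic acid sensing, 3 were higher (Aim2, Tmem203 and Unc93b1) and 2 lower. The lower ones were Cgas, the cytosolic DNA sensor, which fell by 0.49 ± 0.096 (SE) on the log2 scale (limma, adjusted p = 1.55e-04), and Irf5, which fell by 0.21 ± 0.048 (SE; limma, adjusted p = 7.99e-04). Of 13 tested genes that restrain the signal or remove nucleic acid, 3 were higher (Dnase1l3, Socs3 and Adar) and Rnaseh2b was lower.

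Of 72 other interferon-stimulated genes tested, 27 were higher and 1 was lower, with a median log2 difference of 0.19. The lowest p-values were those of Ly6e, Apobec3, Sp100 and Slfn9. Ly6e, which blocks the fusion of coronaviruses, rose from 3412 ± 726 (SD, n = 21) to 4714 ± 893 (SD, n = 21), a log2 difference of 0.47 ± 0.071 (SE; limma, adjusted p = 2.27e-06). Apobec3, a cytidine deaminase active against retroviruses, differed by 0.43 ± 0.073 (SE; limma, adjusted p = 1.62e-05). Slfn9 was the one lower gene and fell by 1.36 ± 0.29 (SE) on the log2 scale (limma, adjusted p = 4.48e-04).

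Markers of other cell types moved with age as well. Of 8 B cell markers 7 were higher in aged cells, and the summed list ran from 4110 to 7656 in young libraries and from 4083 to 16028 in aged ones. Of 9 tested T cell markers 5 were higher, with sums of 102 to 347 and 122 to 1496. Of 5 tested markers of plasmacytoid dendritic cells Ccr9 and Tcf4 were higher, with sums of 3639 to 5926 and 3395 to 9684, while Klk1 was listed at 0 in every library and Siglech averaged 0.161 and 0.450 rescaled reads. Most of that sum came from Ly6d, Tcf4 and Spib, which B cells also express, so it does not measure this cell type alone. The fibroblast and mesothelial sum had a median of 5.26 in young libraries (0 to 26.4) and 47.8 in aged libraries (24.7 to 126), mostly from Dcn, the 1 gene of that list tested, which was higher by 3.35 on the log2 scale (limma, adjusted p = 2.25e-09). Of 5 tested markers of conventional dendritic cells 3 were lower, and of 9 resident peritoneal macrophage markers 4 were higher and 2 lower. Of 6 monocyte markers 2 were higher and 2 lower, and of 10 macrophage markers 1 was higher and 3 lower, with Cd163 at 303 ± 89.9 (SD, n = 21) in young and 113 ± 91.8 (SD, n = 21) in aged libraries. What part these cells have in the members' levels was not tested.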

How the data were processed

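Macrophage RNA was extracted with Trizol and PureLink columns and made into libraries with the Lexogen QuantSeq 3′ kit, per the labels' protocols. The submitters' processing notes name STAR, DESeq2 and mm10, while the read counter, its annotation and all versions were not named. The authors deposited 1 table of normalized signal per age (gene counts divided by size factors), each normalized separately. Whole reads were recovered from the steps of these values (100.0% of values whole within 0.001) and were put on 1 scale over all 42 libraries with median-of-ratios size factors, which gave the rescaled reads. The reads carry no molecular identifiers, so limits on a count of 0 cover counting error only. Of 47643 identifiers, 47224 matched a symbol.

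Levels were tested as log2(value + 1) with limma 3.58.1 in R 4.3.3, over genes with a mean of at least 10, with a mean for each of the 14 groups, and rhythms with cosine and sine terms of 24 h. Calls used a Benjamini-Hochberg adjusted p under 0.05 over all genes tested. Count tests by edgeR 4.0.16 and DESeq2 1.42.0 on the recovered reads, other scalings, pseudocounts and filters, array weights, a replicate block and libraries left out were alternatives. The fits were tested on simulated data. No pair of libraries of a group agreed within sampling noise. Members and lists were chosen with earlier results of these data known. The members described most fully are the 12 of lowest adjusted p, the other called members, the 4 uncalled members of highest level, the 3 of lowest p for each rhythm test and the members called at a single time. For each other list up to 4 genes of lowest p are named. Gene positions are from the annotation of GRCm38 and promoters from RefSeq on GRCm38.p6. Oas2, Oasl1, Irf7, Irf9, Usp18, Ifi203, Rtp4, Dhx58, Trim30a, Slfn5, Parp14 and Herc6 overlap other gene models and are uncertain, since the strand used in counting is not stated. The values of 1 gene among the other interferon-stimulated genes are not reported here.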

Additional observations from a re-analysis of the deposited data

How the results depend on the processing

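The count of 15 higher members was 10 with no filter on low values, 11 at a mean of at least 50 and 8 at an adjusted p under 0.01. It was 13 under scaling to the total, 15 by edgeR and 16 by DESeq2. For the alternatives in this section the shares of all genes called are not given, so the counts do not set the members apart. At a mean of at least 50, Ifit1, Ifit2, Ifit3 and Xaf1 were not tested, and the other members called higher kept the call. The replicate block gave 14 higher and 1 lower member and 0 rhythms. Replicate numbers were not shown to pair libraries, as the mean correlation of libraries with the same number was 0.0044, -0.0036 and -0.0066. Without single libraries the count ranged from 11 to 17, and that of lower members from 1 to 2. The lower count was also 2 without the 2 highest aged libraries.

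At ZT12 the count of 3 became 1 with no filter, 6 by DESeq2 and 1 without the 4 libraries (the 2 highest of each age). It ranged from 0 (without young ZT12 library 1) to 6 (without aged ZT12 library 1). At ZT24 the count of 1 became 0 with no filter, and ranged from 0 (without young ZT24 library 2) to 1. At ZT0 the count of 0 became 1 by DESeq2, 2 with array weights and 2 without the 4 libraries, at ZT16 it became 1 under each of these, and at ZT20 it became 1 by DESeq2 and with array weights. Leaving out single libraries gave 0 to 1 at ZT0 and ZT4 and 0 to 3 at ZT16. DESeq2 called 1 rhythm in aged cells.

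Signs turned for 4 uncalled members. Mx2 was 0.044 with array weights. Ifi203 was 0.029 with array weights, 0.022 without the ZT24 libraries, 0.051 without the 2 highest young libraries and 0.033 without the 4, and ranged from -0.066 to 0.034 without single libraries. Irf9 was -0.0081 under scaling to the total, -0.015 without the ZT0 libraries and -0.0020 without the 2 highest aged libraries, and ranged from -0.0067 to 0.034. Parp14 was -0.0056 without the ZT0 libraries. The causes were not tested.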

Other observations

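Genes known to respond to interferon gamma as well as to type I interferon separated the libraries in which the members were highest. Irf1, a transcription factor, was at 10966 rescaled reads in young ZT4 library 3, against 1767 and 5210 in the other libraries of its group, and at 7734 in aged ZT12 library 3, against 2442 and 4230. In aged ZT16 library 1 Irf1 was at 6646, against 2743 and 3067. In young ZT16 library 3 it was at 1859, against 1712 and 1736, and ranked 17 of the 21 young libraries. The GTPase gene Igtp was at 1807, 1506 and 750 in the first 3 of these libraries and at 213 in young ZT16 library 3, where the other libraries of the group had 175 and 194. Socs1, a brake on interferon signalling, was at 517, 419 and 344 in those 3 libraries and at 114 in young ZT16 library 3. Cxcl10, a chemokine, was at 120, 40.0 and 103 in those 3 libraries and had no read in young ZT16 library 3. Thus 3 of the 4 libraries were high in these chosen genes and young ZT16 library 3, in which 11 members were the highest of the young libraries, was not. The wider list did not separate it: 61 of 73 other interferon-stimulated genes were above the mean of the rest of its group. The counts were 59, 61 and 63 in the other 3 libraries. For Igtp, Socs1 and Cxcl10 the other libraries of those 3 groups are not printed here. The libraries and genes were chosen after their values were seen, and no test was made.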
